A study of Homo sapiens with 267 samples.

Results

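The genes described here are 10 core components of the switch that takes a cell out of G1, namely the D cyclins CCND1, CCND2 and CCND3, the kinases CDK4, CDK6 and CDK2, the inhibitors CDKN1B, CDKN2C and CDKN2D, and the retinoblastoma gene RB1. They were chosen by name from textbook knowledge of the pathway and found by their Ensembl identifiers. All 10 were present once among the 63677 genes of the count table.

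D cyclins are made in response to growth signals and bind CDK4 or CDK6, and the active kinase phosphorylates the retinoblastoma protein, which then releases E2F transcription factors that drive entry into S phase. CDK2 continues this phosphorylation with cyclin E and cyclin A. The INK4 inhibitors, to which CDKN2C (p18) and CDKN2D (p19) belong, bind CDK4 and CDK6, whereas CDKN1B (p27) belongs to the CIP/KIP family and acts mainly on CDK2 complexes. In chronic myeloid leukaemia cells this switch lies downstream of the BCR-ABL kinase, the target of imatinib.

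The study measured messenger RNA in K562 cells, a BCR-ABL-positive human myeloid leukaemia cell line, captured on a microfluidic device, with the aim of testing a reversible chemical fixative for such work. The untreated Hoechst run held 96 libraries of cells at passages 90 to 92, stained with Hoechst 33342 and propidium iodide. In both CellTracker runs the cells were at passages 20 to 22, and an untreated culture stained with CellTracker Green CMFDA was run beside a drug-treated culture stained with CellTracker Orange CMRA, both with a dead cell stain. Orange cells received 10 mM benzene for 3 h in the benzene run (35 Orange and 36 Green libraries with counts) and 1 µM imatinib for 1 h in the imatinib run (45 Orange and 51 Green).

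The labels print the passages with hours as their unit. After libraries dominated by a few genes were left out, 242 of 263 libraries were kept: 82 of the Hoechst run, 31 Green and 34 Orange of the benzene run, and 50 Green and 45 Orange of the imatinib run. Depth was 50358 to 2043351 reads on genes, with run medians of 1284940, 1336630 and 1234120 for the Hoechst, benzene and imatinib runs, and 2 kept libraries, both of the Hoechst run, had fewer than 500000 reads. Of the kept libraries, 5, 3 and 4 in the same order had more than 10000 genes with over 2 reads. The study also made bulk samples, and because single cells, bulk samples and fixed cells were not mapped from the labels, the values of CCND1 and of the kinases are also given for these complex libraries and without them. All 10 erythroid and K562 markers examined had reads in 50% or more of the libraries in each group, with a summed level of 7375 to 9864 reads per 1000000 reads on genes (CPM). The 8 markers of other cell types summed to 46.7 to 187 CPM, of which CD3D, a T-cell gene, was 130 CPM in the Hoechst run and at most 42.2 CPM elsewhere, while CD3E stayed at or below 0.0634 CPM. EPCAM, an epithelial gene, was 34.2 to 49.8 CPM and had reads in 92.7%, 83.1% and 95.8% of libraries of the Hoechst, benzene and imatinib runs.

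Each run and stain is 1 culture, and in each CellTracker run the stain and the drug went together. Stain and drug therefore cannot be told apart, libraries are not replicates of a culture, and no test between conditions was possible. The study used another lot of K562 cells for the Hoechst run. Each experiment of the study held fresh and fixed cells, and fixed cells were stored longer in the Hoechst experiment. Dead cells were sequenced there but excluded in the CellTracker experiments. Cell lot, passage, stain, storage time, inclusion of dead cells, sequencer and run likewise cannot be told apart between the Hoechst run and the CellTracker runs. Detection intervals below are binomial over the libraries of a run, and no interval covers differences between cultures. Intervals on summed reads cover counting error only and take no account of amplified copies, since reads carry no molecular identifiers. In pooled libraries, fewer cells with a transcript and less RNA per cell cannot be told apart.

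CCND2, CCND3 and CDK6 were abundant in every run. They ranked between the 89.5th and 96.5th percentile of genes detected in at least 20% of a run's libraries, by CPM of the summed counts. The inhibitors, RB1 and CCND1 were low in every run, at or below the 44.9th percentile. CDK4 moved farthest in rank, from the 50.4th percentile in the Hoechst run to the 78th in the benzene run and the 91.5th in the imatinib run.

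**Figure D1:**
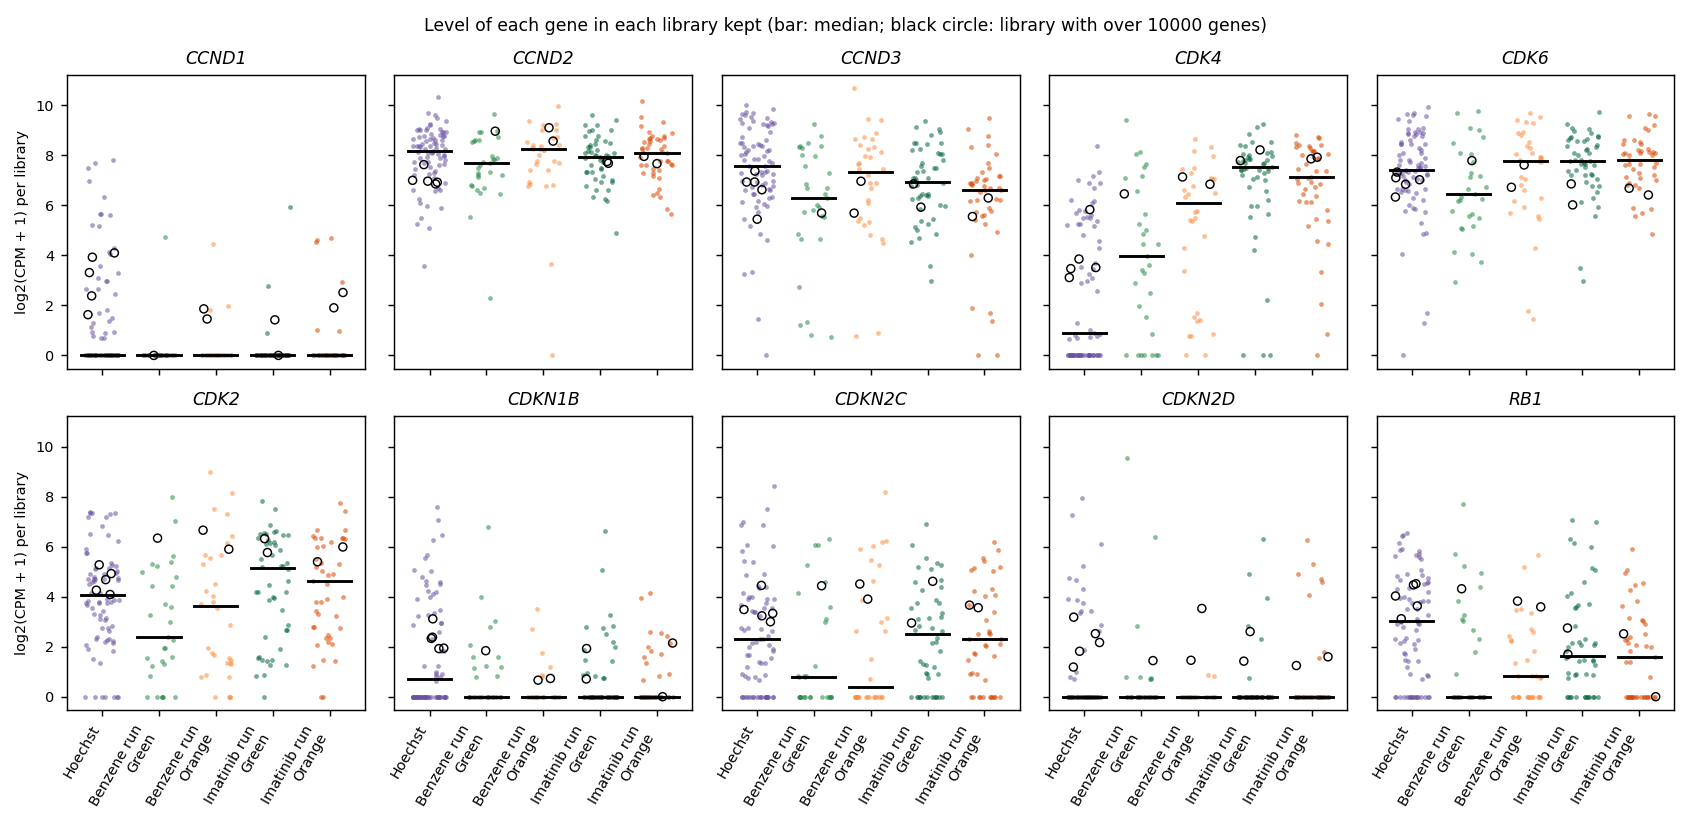
Level of each of the 10 genes in each kept library as log2(CPM + 1), by run and stain (Hoechst, benzene run Green and Orange, imatinib run Green and Orange). Points are libraries, bars are medians and black circles are libraries with over 10000 genes. CDK4 medians were 0.838 CPM in the Hoechst run and 182 CPM in the Green libraries of the imatinib run, whereas CCND2 medians lay between 208 and 308 CPM in all 5 groups.

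CCND2 (ENSG00000118971, chr12:4378937-4414519, + strand, GRCh37) was steadier over libraries than CCND3, the other abundant D cyclin. Its level in the Hoechst run ran from 10.8 CPM to 1277 CPM with a median of 287 CPM. Green and Orange medians were 208 and 308 CPM in the benzene run and 245 and 272 CPM in the imatinib run. Ranges overlapped almost wholly, and CCND2 was missing from 1 library, of the Orange benzene group. The SD of log2(CPM + 1) over libraries was 1.16 in the Hoechst run (n = 82), 1.59 in the benzene run (n = 65) and 0.94 in the imatinib run (n = 95).

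CCND3 (ENSG00000112576, chr6:41902672-42018095, − strand), the D cyclin used widely in blood cells, was spread more widely. Its median was 188 CPM in the Hoechst run, with a range of 0 to 1029 CPM. The Green and Orange medians were 77.9 and 160 CPM in the benzene run and 122 and 96.6 CPM in the imatinib run. The highest single value, 1655 CPM, was in an Orange library of the benzene run that held 23.1% of that group's CCND3 reads. The SD of log2(CPM + 1) for CCND3 was 1.82, 2.31 and 1.84 in the Hoechst, benzene and imatinib runs.

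CCND1 (ENSG00000110092, chr11:69455924-69469242, + strand), the D cyclin most used outside blood, was detected (at least 1 read) in 38 of 82 Hoechst libraries, or 46.3% (exact 95% binomial interval 35.3 to 57.7%). In the benzene run it was detected in 6 of 65 libraries, or 9.23% (3.46 to 19%). In the imatinib run it was detected in 12 of 95, or 12.6% (6.70 to 21%). After thinning to 500000 reads, which left out the 2 shallower Hoechst libraries, the shares were 42.5%, 7.69% and 10.5%. The higher share of the Hoechst run describes 1 culture. Where CCND1 was seen its level was uneven, since the 3 highest of the Hoechst libraries, the top one at 224 CPM, held 55.6% of the run's CCND1 reads. All 5 complex Hoechst libraries held CCND1, at 2.09 to 16.1 CPM, against 0 to 2.63 CPM in the 3 of the benzene run and 0 to 4.71 CPM in the 4 of the imatinib run. Without the complex libraries CCND1 was detected in 33 of 77, 4 of 62 and 9 of 91 libraries.

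Per kilobase of exon, CCND2 and CCND3 made up nearly all of the D-cyclin messenger RNA. With the union of exons as length, CCND1 took 3.52%, 0.288% and 0.550% of the summed D-cyclin level in the Hoechst, benzene and imatinib runs, and CCND2 took 41.3%, 50.7% and 56.8%. CCND3 took 55.2%, 49% and 42.6%. The exon union of CCND3 is 5761 bases and its longest transcript 2394 bases, and with the longest transcript as length CCND3 took 71.8%, 66.5% and 60.5%. CCND3 thus led in the Hoechst run with both lengths, whereas the order of CCND2 and CCND3 turned with the length in both CellTracker runs. CCND2 and CCND3 were detected together in 81 of 82, 64 of 65 and 93 of 95 libraries.

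CDK4 and CDK6 are close paralogues that share the D cyclins as partners, and they behaved differently across runs. CDK6 (ENSG00000105810, chr7:92234235-92465887, − strand) had a median of 168 CPM in the Hoechst run, 140 CPM in the benzene run and 219 CPM in the imatinib run. It was missing from 1 of the 242 libraries. CDK4 (ENSG00000135446, chr12:58141510-58149796, − strand) had medians of 0.838, 37.6 and 173 CPM in the same order. Of the Hoechst libraries, 35 of 82 had no CDK4 read, against 9 of 65 and 4 of 95 in the other runs.

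The promoters of both kinases are shown because the run-to-run difference was seen in CDK4 and not to the same degree in its paralogue. The sequences are the 250 bases before the annotated start in RefSeq (GRCh38.p14, all on the − strand, written 5′ to 3′ of the gene). Capitals mark the E-box CACGTG, which MYC and MAX can bind, and the GC box GGGCGG, which SP1-type factors can bind, searched on both strands, so that GC boxes on the other strand read CCGCCC. CDK6 has a pair of annotated starts, and RefSeq entries were matched for 7 of the 10 genes.
CDK4, chr12:57752311-57752560: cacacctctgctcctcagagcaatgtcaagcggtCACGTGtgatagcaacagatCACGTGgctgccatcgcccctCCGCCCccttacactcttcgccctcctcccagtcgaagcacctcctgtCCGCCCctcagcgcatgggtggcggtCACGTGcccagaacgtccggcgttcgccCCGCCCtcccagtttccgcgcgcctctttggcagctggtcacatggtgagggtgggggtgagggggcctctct
CDK6 start 1, chr7:92836574-92836823: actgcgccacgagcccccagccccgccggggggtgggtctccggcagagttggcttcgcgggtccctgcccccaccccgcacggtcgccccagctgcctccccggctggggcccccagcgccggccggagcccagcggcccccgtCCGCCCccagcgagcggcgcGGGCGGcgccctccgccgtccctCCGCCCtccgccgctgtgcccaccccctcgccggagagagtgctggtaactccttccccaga
CDK6 start 2, chr7:92833960-92834209: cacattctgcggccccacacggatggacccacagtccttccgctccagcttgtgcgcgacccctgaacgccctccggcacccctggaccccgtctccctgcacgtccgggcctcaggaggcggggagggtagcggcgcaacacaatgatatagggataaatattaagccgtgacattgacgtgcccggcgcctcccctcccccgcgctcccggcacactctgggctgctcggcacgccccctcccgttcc
The CDK4 window held 3 CACGTG and 3 GC boxes, CDK6 start 1 held 0 and 3, and CDK6 start 2 held 0 of either. Of 35116 promoter windows of the same length, 6.34% held CACGTG and 42.6% held a GC box. None of the 3 windows held the E2F letters searched (TTTCCCGC, TTTCGCGC, TTTGCCGC or TTTGGCGC, in 2.79% of all windows) or CCAAT (32%). These matches describe letters and say nothing about which factor was bound in these cells. Their relation to the difference between runs was not tested.

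The CDK4 distributions overlapped between runs, with maxima of 326, 676 and 608 CPM in the Hoechst, benzene and imatinib runs. The upper quartile of the Hoechst run, 36.8 CPM, lay below the lower quartile of the imatinib run, 77 CPM. Among the complex libraries alone (5, 3 and 4), CDK4 ran from 7.64 to 55.8 CPM in the Hoechst run and 86.8 to 139 CPM in the benzene run. In the imatinib run it ran from 220 to 296 CPM, with no overlap among the 3 runs. How many of all genes are separate in this way was not counted, so the separation is not shown to be particular to CDK4. In the same complex libraries CDK6 ran from 79.5 to 160, 105 to 220 and 63.8 to 115 CPM, with overlap among all 3 runs. Without the complex libraries the medians were 0.699, 29.6 and 171 CPM for CDK4 and 180, 140 and 223 CPM for CDK6.

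Part of CDK4 lies on exons of TSPAN31, which is read from the opposite strand: 1369 bases, or 44.2% of the CDK4 exon union. Whether strand was used in counting is not given in the sources used here. TSPAN31 was 17.6 to 23.6 CPM in every group, by summed counts. The reads of both genes were also added together, a setting chosen after seeing the data. The medians were then 4.48, 80.7 and 202 CPM in the Hoechst, benzene and imatinib runs, in the same order as for CDK4 alone. The paper lists ambiguously mapped reads apart from assigned reads. Reads on the shared bases may thus be missing from both genes, and adding the counts does not restore them. How the overlap affects the CDK4 level was not tested. Exons on the opposite strand also cover 20.4% of the CDKN2C union, 14.5% of CDK2 (noncoding RNAs) and 10.4% of CCND1 (LTO1), and a further protein-coding gene model on the same strand covers 12.5% of CCND2. These further overlaps come from an annotation later than the one used for counting, which may lack some of these models.

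**Figure D2:**
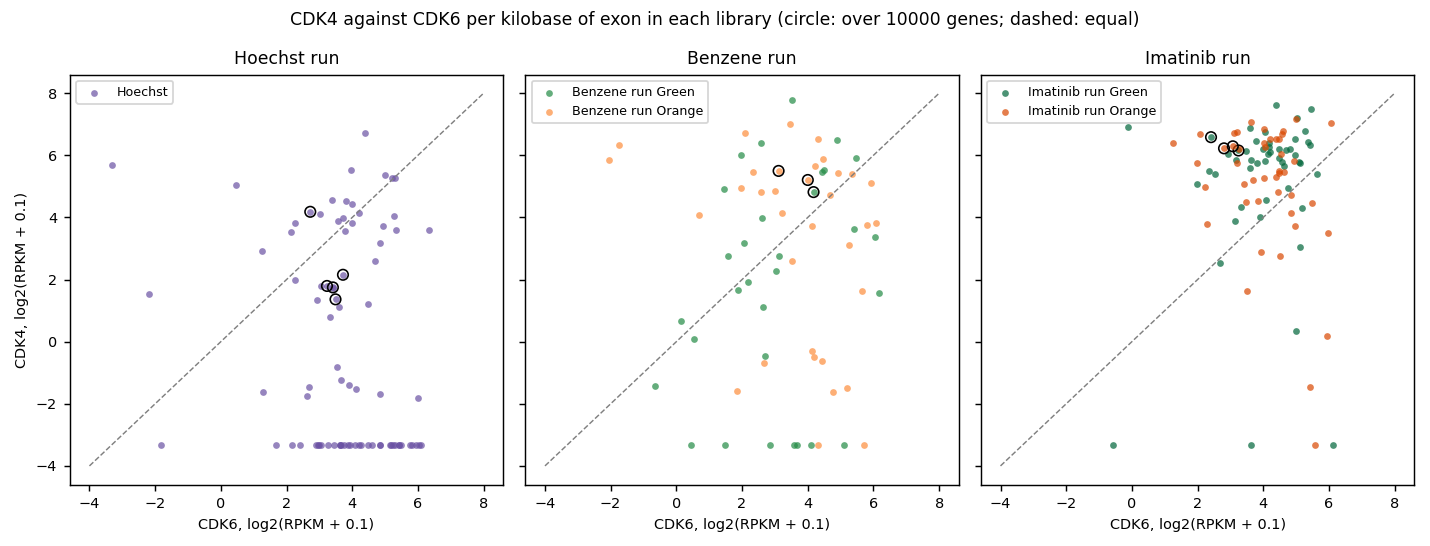
CDK4 (y axis) against CDK6 (x axis) in each kept library as log2(RPKM + 0.1), RPKM being CPM per kilobase of exon union, in a panel for each run. Points are libraries coloured by stain, black circles are libraries with over 10000 genes and the dashed line marks equal levels. CDK4 lay above CDK6 in 17 of 82 Hoechst libraries, 31 of 65 benzene-run libraries and 76 of 95 imatinib-run libraries.

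Per kilobase of exon, CDK6 took 73.1% of the summed CDK4 and CDK6 level in the Hoechst run, 41.2% in the benzene run and 25.2% in the imatinib run. With the longest transcript as length the shares of CDK6 were 63.2%, 30.7% and 17.6%, so the order of runs did not turn on the length. By libraries, CDK4 exceeded CDK6 per length in 17 of 82, 31 of 65 and 76 of 95. Libraries with CDK6 and no CDK4 numbered 35, 9 and 4, and the reverse was seen in 1 library, of the Hoechst run.

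CDK2 (ENSG00000123374, chr12:56360565-56366573, + strand), the partner of cyclins E and A, was detected in 91.5%, 84.6% and 96.8% of libraries of the Hoechst, benzene and imatinib runs. Its medians were 15.7, 6.99 and 28.4 CPM. The values ran from 0 to 164, 0 to 504 and 0 to 226 CPM, and all runs overlapped. Among complex libraries CDK2 was 16 to 37.7 CPM in the Hoechst run and 58.6 to 99.9 CPM in the benzene run, with the imatinib run (41.1 to 78.9 CPM) overlapping the latter only. How many of all genes are separate in this way was not counted, so this is not shown to be particular to CDK2. Without the complex libraries the CDK2 medians were 13.6, 5.25 and 23.4 CPM.

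The inhibitors were sparse. CDKN2C (ENSG00000123080, chr1:51426417-51440306, + strand) was the most often detected, in 74.4%, 50.8% and 74.7% of libraries, with medians of 3.97, 0.617 and 3.97 CPM and maxima of 344, 290 and 117 CPM. CDKN1B (ENSG00000111276, chr12:12838432-12875303, + strand) was detected in 51.2%, 32.3% and 35.8%, with medians of 0.644, 0 and 0 CPM and maxima of 192, 110 and 96.7 CPM. CDKN2D (ENSG00000129355, chr19:10677136-10679735, − strand) was detected in 29.3%, 20.0% and 18.9%, with medians of 0 CPM in every run and maxima of 245, 738 and 77.8 CPM. In the Hoechst, benzene and imatinib runs the top library held 45.4%, 84.8% and 20.6% of the CDKN2D reads, 18.9%, 66.9% and 39% of the CDKN1B reads and 30.4%, 21.9% and 11.3% of the CDKN2C reads. The reads of CDKN2D and CDKN1B in the benzene run thus came mostly from 1 library.

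Few libraries held all 3 inhibitors, 12 of 82, 6 of 65 and 8 of 95 in the Hoechst, benzene and imatinib runs, and 9, 22 and 16 held none of them. CDKN2A and CDKN2B, the INK4 genes on chromosome arm 9p that K562 cells are known to have lost, had 0 reads in all 242 libraries. For each of them a count of 0 allows up to 0.0288, 0.0340 and 0.0251 CPM in the sums of the Hoechst, benzene and imatinib runs. CDKN2C and CDKN2D were therefore the INK4 genes with reads in these libraries.

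RB1 (ENSG00000139687, chr13:48877880-49173572, + strand), the substrate of these kinases, was detected in 78%, 52.3% and 66.3% of libraries of the Hoechst, benzene and imatinib runs. Its medians were 7.08, 0.715 and 2.00 CPM and its maxima 91.5, 208 and 133 CPM. Thinned to 500000 reads, the shares for RB1 were 72.5%, 44.6% and 58.9%.

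**Figure D3:**
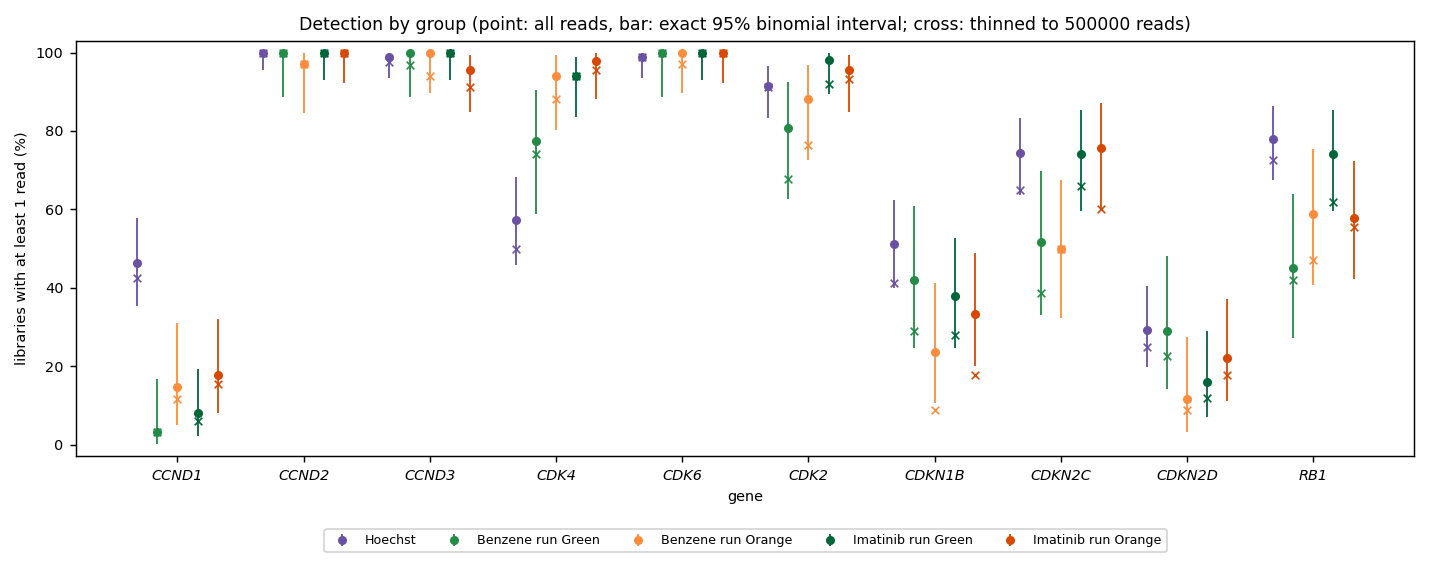
Share of kept libraries with at least 1 read of each gene, in percent, for the 5 groups of run and stain. Points are shares from all reads with exact 95% binomial intervals as bars, and crosses are shares after thinning to 500000 reads. CCND2, CCND3 and CDK6 sat at 95.6% or higher in every group, whereas CDKN2D lay between 11.8% and 29.3%.

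The number of these 10 genes detected in a library had a median of 7 in the Hoechst run, 6 in the benzene run and 7 in the imatinib run, with lows of 4, 3 and 4 and a high of 10 in each. The benzene run had the fewest genes with over 2 reads, a median of 5905 against 7411 and 8022, and the part of this in the lower detection there was not tested.

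Orange and Green libraries were next set against each other within each CellTracker run, which addresses how the genes stood after benzene or imatinib. Counts were summed per stain, and the log2 ratio was taken of CPM with a pseudocount of 1 CPM, for genes detected in at least 20% of the run's libraries. The range with any 1 library left out follows in brackets, library numbers only name libraries within a group, and a ratio past 1.5-fold is called higher or lower without a test.

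In the benzene run 9 of the 10 genes passed the filter, 3 of them higher in Orange (CCND3, CDK2 and CDKN2C), 3 lower (CDKN1B, CDKN2D and RB1) and 3 within 1.5-fold. Over all 11393 genes, 43.7% were past 1.5-fold, 23.7% higher and 20.1% lower. The median log2 ratio of the 9 genes was 0.36, against 0.04 over all genes.

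CDK2 summed to 53 CPM in Orange and 26.2 CPM in Green, a log2 ratio of 0.99 (0.60 to 1.51), which stayed past 1.5-fold with any library left out. The library values overlapped, with medians of 11.3 and 4.28 CPM and maxima of 504 and 250 CPM. The low end came without Orange library 25, which held 26.1% of the group's CDK2 reads, and the high end without Green library 21. The top 3 libraries held 55.8% of the Orange and 59.6% of the Green CDK2 reads. More than 2 reads were seen in 67.6% of Orange and 67.7% of Green libraries.

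CCND3 summed to 253 CPM in Orange and 148 CPM in Green, a log2 ratio of 0.77 (0.44 to 0.96), and without Orange library 21, the one at 1655 CPM, it was no longer past 1.5-fold. CCND2, at 325 and 253 CPM, had a log2 ratio of 0.36 (0.26 to 0.46), and CDK6, at 272 and 194 CPM, 0.48 (0.39 to 0.68). All of these were more abundant in the Orange sum, and their library values overlapped between the stains. CDK6 was past 1.5-fold without Green library 19, 23 or 25 (0.64, 0.59 and 0.68), and CDK4, at 93.9 and 74.7 CPM with a log2 ratio of 0.32 (0.18 to 0.73), was so without Green library 18. In library terms the CDK4 medians were 67.6 CPM in Orange and 14.5 CPM in Green, and the difference of mean log2(CPM + 1) was 1.13, with SDs of 2.75 (n = 34) and 2.96 (n = 31).

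A single Green library carried much of each of the lower ratios, and for CDKN1B and RB1 the call was lost without it. CDKN2D summed to 0.456 CPM in Orange and 24.3 CPM in Green, a log2 ratio of -4.12. Green library 1, at 738 CPM, held 86.5% of the Green reads, and without it the ratio was -1.59, still past 1.5-fold. That ratio too rested on few libraries, since the top 3 held 99.3% of the Green reads and only 3 of 31 had more than 2 reads. By the mean of log2(CPM + 1) the ratio of CDKN2D was -0.58, within 1.5-fold. CDKN1B, at 0.674 and 5.70 CPM, had a ratio of -2.00, and without Green library 26, at 110 CPM, it was -0.55. RB1, at 5.04 and 14.2 CPM, had a ratio of -1.33, and without Green library 21, at 208 CPM, it was -0.42. RB1 was detected in more Orange than Green libraries, 58.8% against 45.2%, so its level and its detection pointed opposite ways. CDKN2C, at 20.2 CPM in Orange and 11.9 CPM in Green, had a ratio of 0.72, and without Orange library 3, at 290 CPM, it was 0.19.

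In the imatinib run 8 of the 10 genes passed the filter, none of them higher in Orange, 2 lower (CDKN1B and RB1) and 6 within 1.5-fold. Over all 12807 genes 22.1% were past 1.5-fold, 10.2% higher and 11.9% lower. The median log2 ratio was -0.21, against -0.02 over all genes. CCND1 and CDKN2D were below the filter.

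RB1 summed to 6.67 CPM in Orange and 13.6 CPM in Green, a log2 ratio of -0.93 (-1.20 to -0.68), which stayed past 1.5-fold with any library left out. It was detected in 57.8% of Orange and 74% of Green libraries, with medians of 2.00 and 2.09 CPM and maxima of 59.3 and 133 CPM. The medians of RB1 were thus close, and the sums were set apart by high Green libraries, of which the top 3 held 49.5% of the Green reads. The difference of mean log2(CPM + 1) was -0.47, with SDs of 1.76 (n = 45) and 2.06 (n = 50).

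CDKN1B, at 1.36 CPM in Orange and 3.90 CPM in Green, had a log2 ratio of -1.06, and without Green library 32, at 96.7 CPM, it was -0.32. CCND3 summed to 128 CPM in Orange and 179 CPM in Green, a log2 ratio of -0.48 (-0.62 to -0.40), with medians of 96.6 and 122 CPM. Without Orange library 32, at 716 CPM, CCND3 was past 1.5-fold. The kinases hardly differed in the sums: CDK4 had 178 and 197 CPM and a log2 ratio of -0.15 (-0.20 to -0.08), CDK6 249 and 252 CPM and -0.02 (-0.08 to 0.02), and CDK2 38.8 and 46.3 CPM and -0.25 (-0.36 to -0.11). CCND2, at 305 and 271 CPM, had a ratio of 0.17 (0.08 to 0.21), and CDKN2C, at 11.4 and 13.1 CPM, -0.18 (-0.38 to 0.09).

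**Figure D4:**
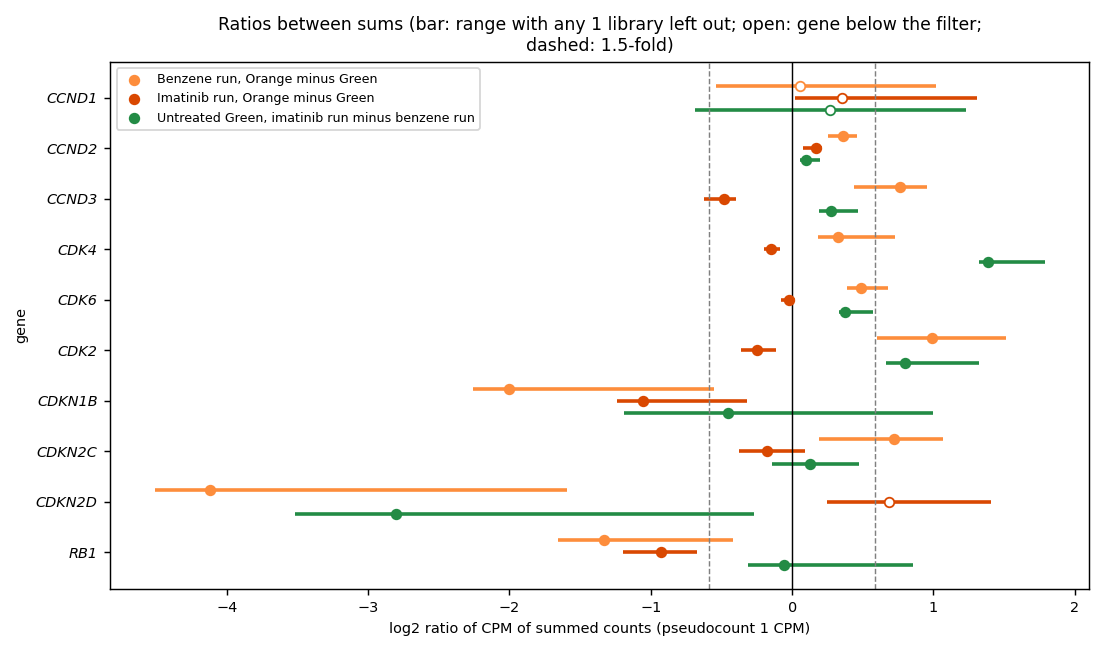
Log2 ratio of CPM of summed counts (pseudocount 1 CPM) for each gene between Orange and Green in each CellTracker run and between the untreated Green libraries of both runs. Bars span the ratios with any 1 library left out, open points are genes below the filter and dashed lines mark 1.5-fold. CDK4 stood at 1.39 between the untreated Green cultures and at 0.32 and -0.15 between the stains.

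The untreated Green cultures, 1 in each run, give a single difference between cultures that received no drug. Any difference between the runs is part of it. The median number of genes with over 2 reads was 5963 in the Green libraries of the benzene run and 8082 in those of the imatinib run. The part of this in the ratios was not tested. Over all 12092 genes 51.7% were past 1.5-fold between these cultures, 30.2% higher in the imatinib run and 21.5% lower. Of the 9 genes that passed the filter, 2 were higher (CDK4 and CDK2), 1 was lower (CDKN2D) and 6 were within 1.5-fold. CDK4 summed to 197 CPM in the imatinib run and 74.7 CPM in the benzene run, a log2 ratio of 1.39 (1.32 to 1.79), larger than its ratio between the stains in either run. Its Green medians were 182 and 14.5 CPM, and of all pairs of a Green library from each run 79.8% had more CDK4 in the imatinib run. CDK2 had 46.3 and 26.2 CPM, a ratio of 0.80 (0.66 to 1.32). CDKN2D, at 2.63 and 24.3 CPM, had -2.80, and it was -0.27 without Green library 1 of the benzene run and -3.52 without Green library 38 of the imatinib run. CDKN1B (-0.45) and RB1 (-0.06) were within 1.5-fold, but turned to 1.00 and 0.86 without the benzene-run Green libraries 26 and 21. CDKN1B was also past 1.5-fold, at -0.69 and -1.19, without Green library 28 or 32 of the imatinib run.

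Other genes of G1 control were taken from a list of 33 that held cyclins E and A, further kinases and inhibitors, the E2F factors and regulators of D-cyclin turnover, of which 30 passed the filter in each run. In the benzene run 6 of the 30 were higher in Orange, 5 were lower and 19 were within 1.5-fold, beside 23.7% higher and 20.1% lower over all genes. The higher genes were CCNA2 (log2 ratio 1.00), the CDK-activating kinase CDK7 (1.08), the RB-like gene RBL1 (1.47), E2F7 (1.07), the ubiquitin ligase component FBXW7 (0.85) and AMBRA1 (0.65), an adaptor in D-cyclin degradation. The lower genes were E2F3 (-0.68), E2F5 (-1.64), E2F8 (-0.62), the phosphatase CDC25A (-1.35) and GSK3B (-1.84), a kinase that marks CCND1 protein for export and degradation. CCNA2, CDK7, RBL1, E2F7 and GSK3B stayed past 1.5-fold with any library left out, though RBL1 was 0.74 without Orange library 31, E2F7 2.01 without Green library 19 and GSK3B -1.16 without Green library 27. Leaving out 1 library turned the direction of E2F5 (to 0.71, Green library 19), E2F8 (to 0.40, Green library 9) and AMBRA1 (to -0.13, Orange library 9). E2F8 was so near 1.5-fold that leaving out single libraries with no E2F8 reads moved it across (to -0.57 without Orange library 23). The call was also lost for E2F3 without Green library 14, 26, 30 or 31 (-0.30 to -0.56), CDC25A without Green library 22 (-0.38) and FBXW7 without Orange library 31 (0.36).

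In the imatinib run 4 of the 30 were higher in Orange, 3 were lower and 23 were within 1.5-fold, beside 10.2% higher and 11.9% lower over all genes. The higher genes were the CIP/KIP inhibitor CDKN1C (log2 ratio 0.88), E2F5 (0.67), E2F7 (1.44) and E2F8 (0.82), and the ratio of E2F7 was -0.05 without Orange library 36. The lower genes were E2F1 (-0.65), FBXW7 (-0.94) and MYC (-0.84), a transcription factor that promotes expression of D cyclins and CDK4. MYC stayed between -1.0 and -0.73 with any library left out, FBXW7 stayed between -1.19 and -0.80, whereas E2F1 was -0.01 without Green library 26 and -1.49 without Orange library 25. E2F5 was within 1.5-fold without Orange library 11, 24, 25 or 41 (0.37 to 0.58), and so was E2F8 without Orange library 18 (0.54). CDKN1C was 24.6 CPM in Orange and 13 CPM in Green, and stayed between 0.74 and 1.09. Of 20 G1/S genes, none were past 1.5-fold in the imatinib run and 5 were in the benzene run, 2 higher and 3 lower, beside 22.1% and 43.7% of all genes. Of 19 G2/M genes, the counts were 0 and 3, of which 1 was higher and 2 were lower, beside the same shares.

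Between the untreated Green cultures, with no drug, more of these genes were past 1.5-fold than between the stains of either run. Of the 30 genes of G1 control, 12 were higher in the imatinib run and 9 lower, beside 51.7% of all genes past 1.5-fold, and the counts past it were 6 of 20 for G1/S and 9 of 19 for G2/M genes. MYC had a log2 ratio of -0.61, E2F1 2.25, FBXW7 1.61, E2F5 -1.30 and GSK3B -1.54 in that comparison. CDKN1C was within 1.5-fold there, at 0.20.

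Within a run, single libraries differ in cell cycle phase, and the genes were set against the G1/S list by Spearman correlation of log2(CPM + 1). The libraries of a run share its sequencing and differ in depth and in genes detected, so these values are a description. CDK4 had rho of 0.29, 0.24 and 0.21 with the G1/S score in the Hoechst (n = 82), benzene (n = 65) and imatinib (n = 95) runs. CDK2 had 0.27, 0.40 and 0.20. CCND2, CCND3 and CDK6 lay between -0.11 and 0.31, with a different sign in at least 1 run. CDK4 and CDK2 correlated with each other at 0.14, 0.30 and 0.19, and with the number of genes detected at 0.06, 0.45 and 0.28 (CDK4) and 0.19, 0.36 and 0.31 (CDK2).

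CDK4 and CDK6, the paralogues, had rho of -0.15, 0.02 and -0.06, and CCND2 and CCND3 had -0.04, 0.09 and 0.04. The genes whose pattern over libraries was most like each of these genes, among 6749 genes detected in at least 50% of libraries of every run, had mean rho over the 3 runs of 0.24 to 0.37. For CDK4 they were CHCHD3P3 (a processed pseudogene, 0.37), USB1 (0.36) and CRADD (0.35), for CDK6 RAP2B (0.34) and NUP155 (0.30), and for CDK2 SRCAP (0.30), VCL (0.29) and PARG (0.28). For CCND2 they were NSUN2 (0.27) and SRPK1 (0.24), for CCND3 NOP53 (0.29), ERH (0.29) and CFL1 (0.29), for CDKN2C DVL3 (0.29), ALDH1B1 (0.28) and MDM2 (0.27), and for RB1 MTMR2 (0.30), ASCC2 (0.29) and CRNKL1 (0.28). These genes were picked as the highest of 6749 and no chance level was set, so they are not shown to exceed what unrelated genes would give. In single runs rho was as low as 0.07 (RB1 with CRNKL1, imatinib run). CCND1, CDKN1B and CDKN2D were detected too rarely for such a search.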

How the data were processed

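Libraries of K562 cells were made on the C1 device with SMARTer chemistry and sequenced as paired ends. The authors trimmed reads with skewer, aligned them with HISAT2 to GRCh37 with ERCC sequences and counted uniquely mapped reads per Ensembl gene with featureCounts (Subread 1.5.0), and the deposited counts are unnormalized. Whether counting used strand or left out duplicates marked by Picard (1.92) is not given in the sources used here. The authors' deposited CPM table was not used. In the benzene run 4 titles and 4 columns could not be matched and were not used.

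The annotation used for names, exons and positions was GENCODE v44lift37 (GRCh37), later than the annotation used for counting. It held 55665 of the gene identifiers, with 99.0% of reads. A library was kept if its top 500 genes took at most 70% of its reads. CPM was computed per 1000000 reads on genes, as the value per library and for counts summed per group, and RPKM also per kilobase of exon. Ratios used a pseudocount of 1 CPM and a filter of detection in 20% of a run's libraries. No test was run, since each run and stain is 1 culture. Intervals are exact at 95%, and a count of 0 was taken to allow 3 reads. The members, gene lists and settings were chosen with earlier results of these data known. The genes named are all 10 members, listed genes past 1.5-fold in a CellTracker run, CDKN2A and CDKN2B, and the 3 most correlated genes per member, of which some are not reported here. Alternatives were other library sets, pseudocounts, scalings (TMM from edgeR 4.0.16, size factors from DESeq2 1.42.0, in R 4.3.3), thinning, lengths and leaving out each library. Scripts were tested on simulated data. Python 3.11.15, numpy 2.4.6, pandas 2.3.3, scipy 1.17.1 and matplotlib 3.10.9 were used. Promoter sequences are RefSeq's (GRCh38.p14).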

Additional observations from a re-analysis of the deposited data

Results flagged for a closer look

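CCND3 and CDK2 had ratios of opposite direction between Orange and Green in the CellTracker runs. For CCND3 the log2 ratio was 0.77 in the benzene run and -0.48 in the imatinib run. For CDK2 it was 0.99 in the benzene run and -0.25 in the imatinib run. Each direction held with any 1 library left out. Both imatinib-run ratios were within 1.5-fold, and the benzene-run call of CCND3 was lost without Orange library 21. CDK4 (0.32 and -0.15), CDK6 (0.48 and -0.02) and CDKN2C (0.72 and -0.18) also had opposite signs in these runs. So did CDKN2D (-4.12 and 0.69), which was below the filter in the imatinib run. How many of all genes did so was not counted. The difference between the runs was not tested, as each run and stain is 1 culture, and the Orange cells of the runs had received different drugs. The libraries of both stains overlapped for CCND3 and CDK2.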

How the results depend on the processing

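For the 10 genes, no ratio past 1.5-fold changed direction under any of the 12 alternatives run. In the benzene run the count of genes past 1.5-fold was 4981, and it was 8898 with no filter beyond 1 read, 2796 at 2-fold and 3240 with a pseudocount of 10 CPM. In the imatinib run it was 2833, and it was 5709, 1086 and 921 under the same settings. Of 1053 alternative values for 299 results, 817 stayed within the counting error or spread set for that value and 236 did not. Among members past 1.5-fold in the benzene run, CDK2 stayed past it in all 12 alternatives, CCND3 and CDKN2D in 11 and CDKN2C in 9. RB1 stayed past it in 10 of 12 and CDKN1B in 9 of 12 in both runs. Between the untreated Green cultures CDK4 and CDK2 did so in 12 of 12 and CDKN2D in 10 of 12. No paired analysis was possible because no result comes from a test and library numbers only name libraries. By the mean of log2(CPM + 1) the benzene-run ratio of CDKN2D was -0.58 instead of -4.12. Without the libraries with over 10000 genes 7 of 30 ratios left their counting interval and no call of a member changed. Thinning to 500000 reads moved the Hoechst detection of CCND1 from 46.3% to 42.5% and of CDKN2D from 29.3% to 25%.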
